A study of Mus musculus with 6 samples.

Results

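The S100 proteins are a family of small calcium sensors, and 10 of their genes are described here: S100a1, S100a3, S100a4, S100a5, S100a6, S100a10, S100a11, S100a13, S100a16 and S100b. They were named as a list that leaves out S100a8 and S100a9, which together form calprotectin, and cover 10 of the 22180 genes in the table. Probe sets were chosen by the highest mean intensity over all 6 arrays, a choice that did not arise here because each of the 10 genes has a single one. The list was drawn up with the outcome of the comparison known, S100a6 being among the 2 genes called higher in it, so the share of the list that passes is a description and no support for a change of the family. Expression was measured on 6 microarrays, 3 of MLL-AF9 leukaemia cells carrying an Evi1 transgene (Evi1 Tg) and 3 of MLL-AF9 leukaemia cells of wild-type origin (WT), all on the C57BL/6J background and untreated. MLL-AF9, a fusion oncogene that causes acute myeloid leukaemia, is thus present in both groups, and Evi1 is a zinc finger transcription factor encoded by Mecom. GFP-positive cells were sorted as whole leukaemia populations, 10000 per sample, so fewer expressing cells and less RNA per cell cannot be told apart. The labels do not give the promoter of the transgene, the age of the mice or whether the 3 samples of a group came from separate animals. The p-values below may therefore reflect technical spread alone.

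Most S100 proteins form dimers whose EF-hand loops bind calcium, which opens a surface that grips target proteins such as annexins and myosin. Some are also released from cells and signal through receptors such as RAGE and TLR4. In blood, calprotectin is known as an abundant protein of neutrophils and monocytes, while several of the other members are known from muscle, nerve, skin or hair.

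The promoters of 9 of the 10 genes were matched in RefSeq (GRCm38.p6), S100a10 being the other, as windows of 250 bases before to 50 bases after a start site (13 windows in all). A set of 4 windows is printed, chosen because S100a6 is the member that passed the test, S100a11 shares a motif with it, S100a4 is its close neighbour with a TATA box, and S100a13 shares its window with S100a1. Capitals mark the matches of the motifs searched.
S100a6 promoter, chr3:90612644-90612943, plus strand: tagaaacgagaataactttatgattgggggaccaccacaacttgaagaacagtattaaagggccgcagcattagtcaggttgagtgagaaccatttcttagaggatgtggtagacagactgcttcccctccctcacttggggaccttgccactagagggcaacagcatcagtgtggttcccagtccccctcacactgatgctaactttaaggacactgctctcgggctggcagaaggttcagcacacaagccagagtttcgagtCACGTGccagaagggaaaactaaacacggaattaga
S100a11 promoter, chr3:93520246-93520545, plus strand: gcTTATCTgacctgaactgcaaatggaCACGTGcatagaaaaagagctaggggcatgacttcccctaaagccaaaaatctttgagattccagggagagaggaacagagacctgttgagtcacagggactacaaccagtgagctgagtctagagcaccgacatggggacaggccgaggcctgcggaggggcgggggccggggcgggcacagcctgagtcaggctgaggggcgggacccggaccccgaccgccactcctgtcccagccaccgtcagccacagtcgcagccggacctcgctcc
S100a4 promoter, chr3:90603520-90603819, plus strand: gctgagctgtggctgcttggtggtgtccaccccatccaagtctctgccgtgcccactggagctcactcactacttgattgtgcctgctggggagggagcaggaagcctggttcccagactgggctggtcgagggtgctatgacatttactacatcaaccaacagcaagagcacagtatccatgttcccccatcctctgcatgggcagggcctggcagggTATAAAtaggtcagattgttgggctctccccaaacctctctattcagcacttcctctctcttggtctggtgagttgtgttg
S100a13 promoter, chr3:90514185-90514484, plus strand: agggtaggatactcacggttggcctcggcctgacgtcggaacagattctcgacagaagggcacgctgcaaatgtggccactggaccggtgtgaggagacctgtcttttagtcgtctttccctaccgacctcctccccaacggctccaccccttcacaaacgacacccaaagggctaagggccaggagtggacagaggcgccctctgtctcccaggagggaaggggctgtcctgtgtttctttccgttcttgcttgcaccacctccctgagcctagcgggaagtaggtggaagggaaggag
The letters searched on both strands were AGATAA (the kind of site that the first zinc finger domain of EVI1 prefers), GAAGATGAG (the site of its second domain), CACGTG (the E-box of USF factors), TGACNNNGC (the core of the antioxidant element) and CCGGAAG (an ETS-type core). The TATA box was searched as TATAAA. No matches of different motifs overlapped in the printed windows. CACGTG was in the windows of S100a6 and S100a11, beginning at 14 in S100a6 and at -223 in S100a11 counted from the start, and 7.15% of all 32851 windows of that length held it. AGATAA was found in 1 of the 13 windows, that of S100a11, where it reads TTATCT on the printed strand, against 11.2% of all windows. GAAGATGAG was in 0 of the 13, and 0.399% of all windows held it. TATAAA was in 2 of the 13, beginning at -31 in the S100a4 window printed above and at -52 in 1 of the windows of S100a3, against 13.6% of all windows. TGACNNNGC was in 2 of the 13, 1 of S100a16 and 1 of S100a3, against 12.4% of all windows, and CCGGAAG in 0 of the 13, against 8.86%. The windows of S100a1 and S100a13, which are transcribed away from each other, overlap by 204 bases.

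Of these 10 genes, 5 gave a mean signal above background and 5 did not. Background was taken as an intensity of 74.6, the 90th percentile over a list of 61 measured genes chosen as silent in blood cells. By that definition 6 of them lay above it. Csn2 was among these 6 and read 475 to 5527, so not every gene of the list was silent here. S100a1, S100a6, S100a10, S100a11 and S100a13 lay above it on all 6 arrays, and S100a3, S100a4, S100a5, S100a16 and S100b lay below it on all 6. Values are linear intensity as deposited, and a difference is the mean log2 intensity of Evi1 Tg less that of WT, given with limma's moderated standard error (SE) and an adjusted p (Benjamini-Hochberg) over all 22180 genes. A gene was called at an adjusted p under 0.05.

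**Figure D1:**
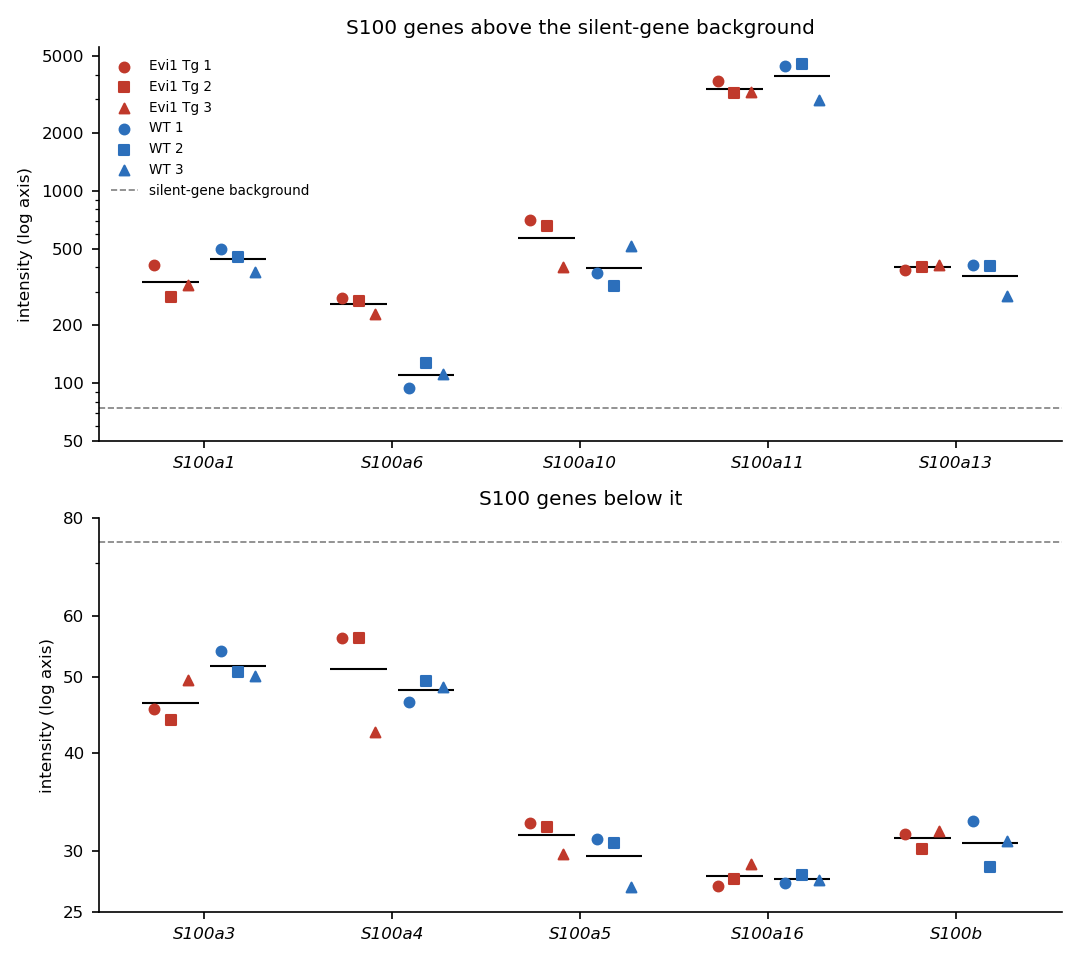
Intensity (log axis) of the 10 S100 genes on each of the 3 Evi1 Tg arrays (red) and 3 WT arrays (blue), with bars at the mean of the log2 values and a dashed line at the background of 74.6. The 3 Evi1 Tg values of S100a6 all stand above the 3 WT values, while the groups overlap for the other 4 genes above background.

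S100a6, also called calcyclin, was the member that passed the test, and its signal in Evi1 Tg cells was 2.33 times that in WT cells by the means of log2 values. It binds annexins and the ubiquitin ligase adaptor CACYBP. Its probe set (17399812) read 279, 269 and 228 in Evi1 Tg 1, 2 and 3, against 94.2, 128 and 112 in WT 1, 2 and 3. The lowest Evi1 Tg array was 1.78 times the highest WT array, so the groups did not overlap. The mean was 259 ± 26.7 in Evi1 Tg cells and 112 ± 17.1 in WT cells (SD, n = 3 each). The WT values lay near the background of 74.6, so the size of the fold may depend on that level. S100a6 rose by 1.22 on the log2 scale (SE 0.138, 95% interval 0.89 to 1.54, limma adjusted p = 0.0423). Of the 10 S100 genes 1 was called higher and 0 lower, beside 0.00902% of all genes called higher, 0.104% lower and 0.113% in either direction, and nothing is read from that contrast because the list was made with it known. The difference lay between 1.02 and 1.32 over 16 alternative settings, and the call was lost in 8 of them. The value of 1.02 came with an offset of 32 added before log2 (limma adjusted p = 0.101). Leaving out an array ended the call without Evi1 Tg 1 (limma adjusted p = 0.236), Evi1 Tg 2 (0.255), Evi1 Tg 3 (0.0557) or WT 1 (0.103), and kept it without WT 2 (0.0304) or WT 3 (0.0249).

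**Figure D2:**
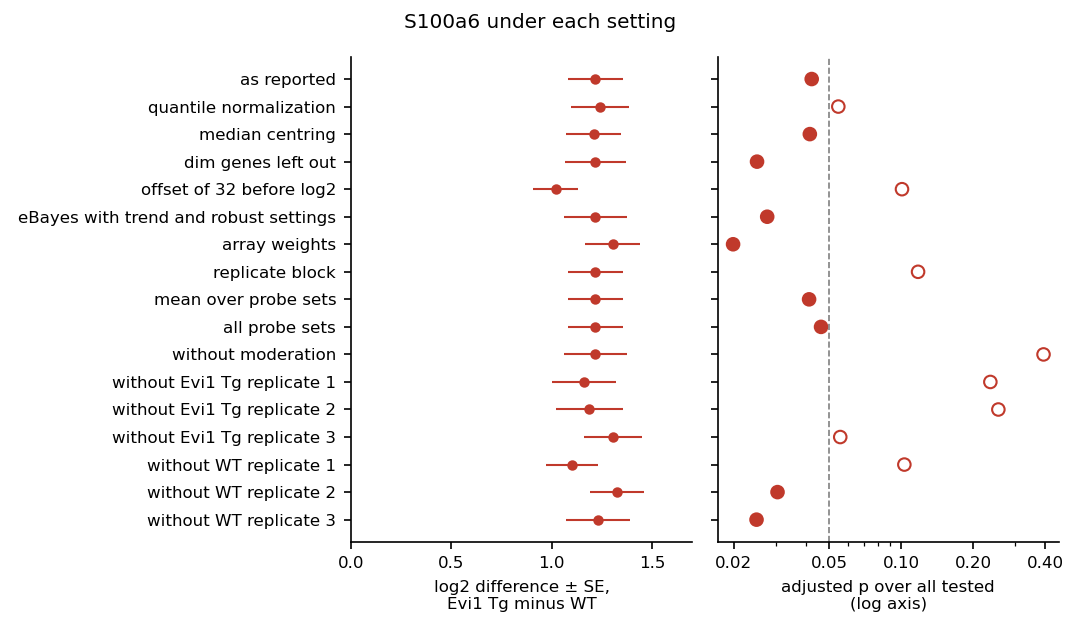
Left, the log2 difference of S100a6, Evi1 Tg minus WT, with its SE under each setting. Right, the adjusted p on a log axis, with filled points below the dashed line at 0.05; the difference stays between 1.02 and 1.32 while the adjusted p runs from 0.0198 to 0.395.

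S100a10, also known as p11, is the member that lost calcium binding in evolution and pairs with annexin A2 at the membrane. It read 704, 659 and 402 in Evi1 Tg 1, 2 and 3, against 376, 319 and 520 in WT 1, 2 and 3. Evi1 Tg 1 and 2 lay above every WT array, but Evi1 Tg 3 lay below WT 3, so the groups overlapped. The difference was 0.53 (SE 0.258, 95% interval -0.08 to 1.14, limma adjusted p = 0.554). It was 0.78 without Evi1 Tg 3 and 0.37 without WT 2, and no setting brought it past the threshold.

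S100a1, known as a regulator of calcium release and uptake in heart and skeletal muscle, had the lowest difference of the 10 genes. It read 413, 281 and 324 in Evi1 Tg 1, 2 and 3, against 498, 454 and 381 in WT 1, 2 and 3. Evi1 Tg 2 and 3 lay below every WT array, and Evi1 Tg 1 lay above WT 3. The difference was -0.40 (SE 0.165, 95% interval -0.79 to -0.01, limma adjusted p = 0.474), and 10.3% of all genes shared its unadjusted limma p under 0.05.

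S100a13, which takes part in the release of FGF1 and interleukin 1 alpha by a route outside the secretory pathway, shares its promoter window with S100a1. It read 389, 401 and 413 in Evi1 Tg cells and 413, 408 and 283 in WT cells. Apart from WT 3 the arrays lay within a narrow range. The difference was 0.15 (SE 0.154, 95% interval -0.22 to 0.51, limma adjusted p = 0.840), and it turned to -0.03 without WT 3. The SD of the log2 values was 0.044 in Evi1 Tg and 0.31 in WT. Whether S100a1 and S100a13 differ from each other in their change was not tested.

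S100a11, or calgizzarin, which binds annexin A1, read 3726, 3213 and 3242 in Evi1 Tg 1, 2 and 3, against 4463, 4544 and 2979 in WT 1, 2 and 3. WT 1 and 2 lay above every Evi1 Tg array and WT 3 below all of them. The difference was -0.21 (SE 0.174, 95% interval -0.62 to 0.20, limma adjusted p = 0.776), and it was -0.41 without WT 3, -0.11 without WT 2 and -0.12 without WT 1. A pseudogene of S100a11 on chromosome 12 has a probe set of its own, S100a11-ps, which read 168, 141 and 176 in Evi1 Tg cells and 235, 198 and 165 in WT cells. Cross-hybridisation between the copies was not tested.

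Without WT 3 the groups of S100a1, of S100a10 and of S100a11 did not overlap, and WT 3 also set the spread of S100a13. This array was singled out after values were seen, and the share of all genes that separate without it was not counted. Over all genes, 383 were called higher and 173 lower without WT 3, and S100a6 was the 1 S100 member among them. The same array stood apart in genes of cell division. The summed intensity of 13 measured division genes, all above background, was 14785 to 15313 on the Evi1 Tg arrays, against 8657 in WT 1, 7977 in WT 2 and 15092 in WT 3. All 13 had a difference above 0 (median 0.65), 4 of them with separate groups, beside 7.08% of all genes separate upward, and 0 were called. Their part in the S100 values, that of S100a6 included, was not tested, and without WT 3 the difference of S100a6 was 1.23.

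**Figure D3:**
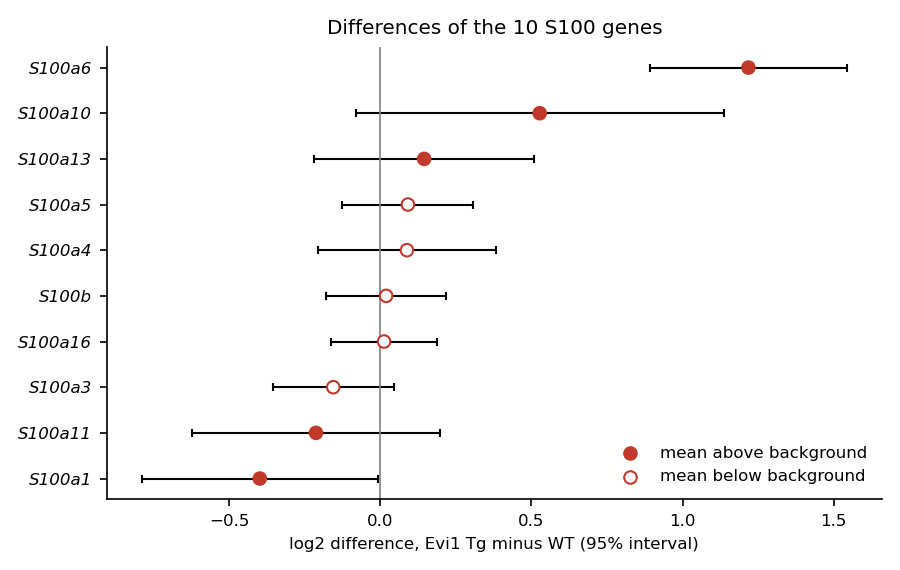
Log2 difference, Evi1 Tg minus WT, of each of the 10 S100 genes with its 95% interval from limma (n = 3 arrays per group). Filled points are genes with a mean above background; the interval of S100a6 runs from 0.89 to 1.54 and that of S100a1 ends at -0.01, while the other 8 include 0.

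The 5 dim genes showed little separation. S100a4, also called metastasin, binds non-muscle myosin and is known from fibroblasts and macrophages. It read 56.2, 56.1 and 42.6 in Evi1 Tg cells, against 46.5, 49.5 and 48.6 in WT cells, with Evi1 Tg 3 below and Evi1 Tg 1 and 2 above every WT array. The difference of S100a4 was 0.09 (SE 0.124, limma adjusted p = 0.890). S100a3, a protein of the hair cuticle, read 45.6, 44.0 and 49.6 in Evi1 Tg cells and 54.0, 50.7 and 50.3 in WT cells. Here all Evi1 Tg arrays lay just below all WT arrays (difference -0.16, SE 0.0846, limma adjusted p = 0.604). Such separation downward was seen in 7.47% of all genes, and upward, as for S100a6, in 7.08%. S100a5, known from olfactory neurons, lay between 29.7 and 32.5 in Evi1 Tg cells and between 27.0 and 31.0 in WT cells. S100a16, a broadly expressed member, lay between 27.0 and 28.8 in Evi1 Tg cells and between 27.3 and 27.9 in WT cells. S100b, the S100 protein of astrocytes and a ligand of RAGE, lay between 30.1 and 31.7 in Evi1 Tg cells and between 28.6 and 32.7 in WT cells. The differences of these 3 genes were 0.09, 0.01 and 0.02. Signal at this level may compress a change, and another probe set might read these genes differently. No statement of absence, of expression or of change, is therefore made.

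Over the 10 genes the median difference was 0.05, with 7 above and 3 below 0, beside a median of 0.01 over all genes, of which 11877 lay above and 10303 below 0. Over the 5 genes above background it was 0.15, with 3 above and 2 below 0, beside 0.0019 over the 9933 genes above background.

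Along the genome, 9 of the 10 genes lie on chromosome 3 and S100b lies on chromosome 10. In RefSeq order the interval from S100a1 to S100a10 holds 70 coding genes, of which 61 were measured, 15 of them S100 genes. S100a6 was the 1 gene called in the interval. Its neighbours on either side, S100a5 and the skin gene S100a7a, had differences of 0.09 and 0.04 and lay below background. The other 46 measured genes of the interval, largely genes of the skin barrier, ranged from -0.21 to 0.30 in difference with a median of 0.02, and 2 of them, Ivl and Lce3c, had a mean above background. The difference between S100a6 and its neighbours was not tested.

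**Figure D4:**
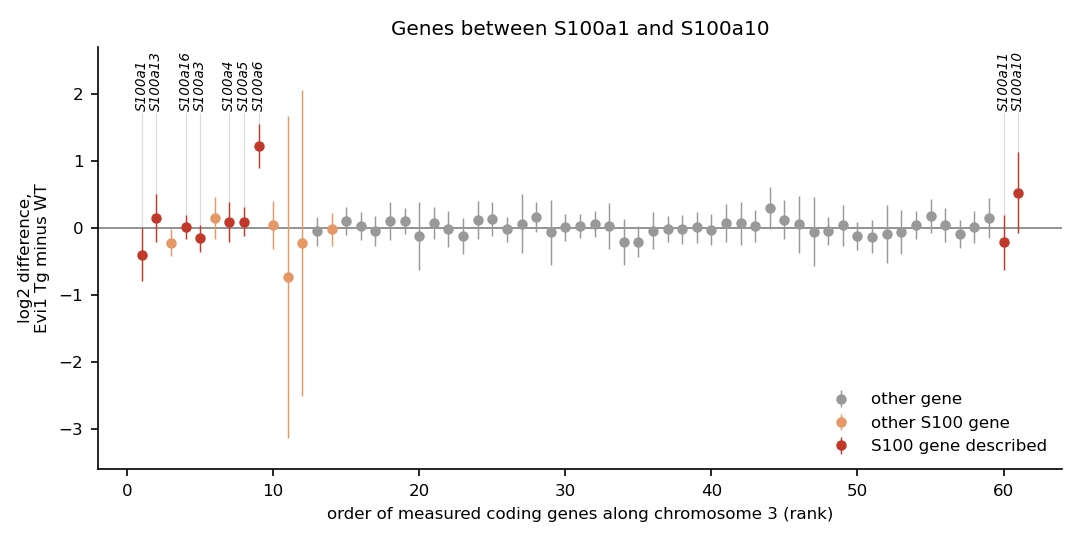
Log2 difference, Evi1 Tg minus WT, with 95% intervals, of the 61 measured coding genes from S100a1 to S100a10, in their RefSeq order along chromosome 3. S100a6 stands at 1.22, between neighbours near 0, and the intervals of S100a8 and S100a9 are the widest of the 61.

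Calprotectin itself varied among arrays of both groups. S100a8 read 1012, 157 and 2862 in Evi1 Tg 1, 2 and 3, against 1203, 2613 and 663 in WT 1, 2 and 3. S100a9 read 225, 69.4 and 1085 in Evi1 Tg cells and 204, 663 and 202 in WT cells. In both genes Evi1 Tg 2 was the lowest and Evi1 Tg 3 the highest of the 6 arrays, and the groups overlapped (differences -0.73, SE 1.02, and -0.23, SE 0.968, limma adjusted p = 0.890 and 0.970). S100a6 varied far less within Evi1 Tg, where the SD of its log2 values was 0.15. Among the other S100 genes listed, S100a14 differed by -0.22 (SE 0.0881, limma adjusted p = 0.460) and S100g, an intestinal calcium carrier, by 0.07, both below background, and 0 of the 6 passed, with 1 lower and 0 higher at an unadjusted limma p under 0.05. Over all 22180 genes, 1286 were lower and 997 higher by that measure.

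Annexins are calcium-dependent membrane proteins to which S100 dimers bind. Of 8 measured genes of annexins and Ahnak, 7 had a difference below 0 (median -0.27, beside 0.01 over all genes), while Anxa7 stood at 0.04. None passed the limma test (0 of 8), and at an unadjusted limma p under 0.05 there were 2 lower and 0 higher, beside the 1286 lower and 997 higher of all 22180 genes. Their summed intensity was 6063 to 7902 on the Evi1 Tg arrays and 8551 to 9821 on the WT arrays. Much of that gap came from Anxa3 (mean 1290 in Evi1 Tg against 2388 in WT) and Anxa5 (2058 against 2666). These were the 2 of the 8 with separate groups, beside 7.47% of all genes separate downward. Annexin A2 (Anxa2), the partner of S100a10, read 1091, 827 and 728 in Evi1 Tg cells, against 1258, 968 and 874 in WT cells, and the groups overlapped (difference -0.23, SE 0.189, limma adjusted p = 0.774). Ahnak, a large scaffold bound by that complex, had a difference of -0.18 (SE 0.0959). Anxa3 read 1210, 890 and 1769 in Evi1 Tg cells, against 2303, 2787 and 2073 in WT cells. All Evi1 Tg arrays of Anxa3 lay below all WT arrays (difference -0.93, SE 0.246, limma adjusted p = 0.252). Anxa5, which binds phosphatidylserine, differed by -0.37 (SE 0.0980, limma adjusted p = 0.252), also with separate groups.

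Among 5 receptors and plasmin system genes, 0 passed. Tlr4, a receptor for calprotectin and for bacterial lipopolysaccharide, read 252, 235 and 228 in Evi1 Tg cells and 335, 350 and 387 in WT cells. Its groups were separate (difference -0.58, SE 0.0913, limma adjusted p = 0.0973), beside 7.47% of all genes separate downward. Plat, the tissue plasminogen activator, had a difference of 0.16 (SE 0.119) with a mean below background and 1 of 6 arrays above it. Of 13 measured intracellular targets 0 passed, with 4 above and 9 below 0 and a median of -0.07. The difference was -0.48 for Mdm2, the ubiquitin ligase of p53 (SE 0.120, limma adjusted p = 0.236), and -0.35 for the kinase Stk38, a target of S100b (SE 0.120). Mdm2 and Stk38 were the 2 of the 13 with separate groups, both lower in Evi1 Tg.

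Of 14 measured genes of other EF-hand proteins 0 passed, with 4 above and 10 below 0 and a median of -0.07. Groups were separate upward in 1 of the 14, Capn2, beside 7.08% of all genes. They were separate downward in 3, Rcn1 among them, beside 7.47% of all genes. Capn2, the large subunit of a calcium-activated protease, read 714, 548 and 587 in Evi1 Tg cells and 292, 327 and 200 in WT cells, with separate groups (difference 1.20, SE 0.197, limma adjusted p = 0.109). Rcn1, a calcium-binding protein of the secretory pathway, differed by -0.82 (SE 0.241, limma adjusted p = 0.300). Its mean was below background, with 2 of 6 arrays above it.

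**Figure D5:**
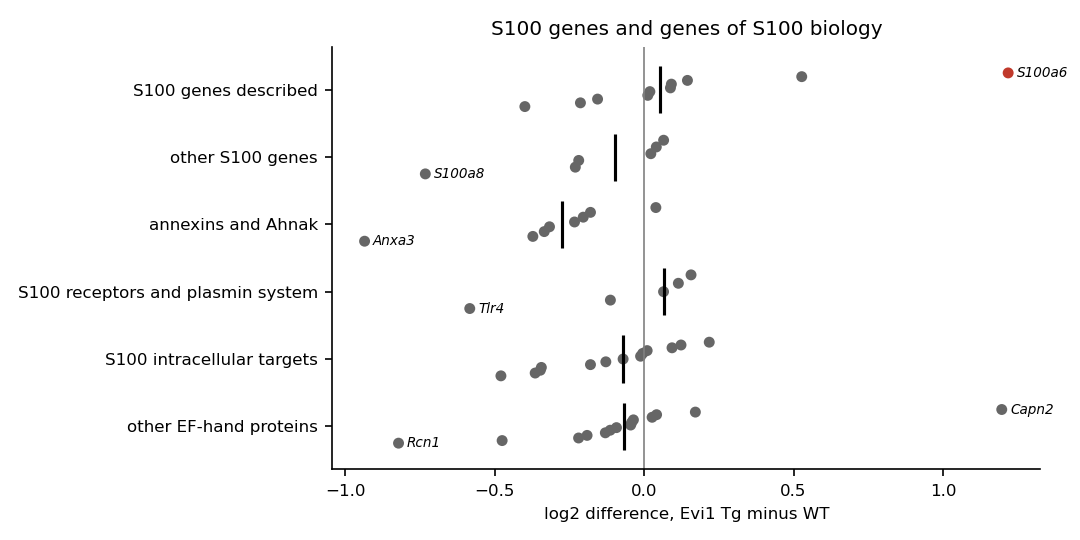
Log2 difference, Evi1 Tg minus WT, of each measured gene in 6 groups, with a bar at the group's median and names at sizes over 0.55. S100a6 is the 1 called gene (red), and 7 of the 8 annexin and Ahnak genes lie below 0.

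The genes most like S100a6 over the 6 arrays, among 9307 other named genes above background, were Zfp296 (Pearson r = 0.997), Dusp22 (0.994), Pom121 (0.988), Spred2 (0.988), Mfng (0.987) and Agap2 (0.986). These r values describe likeness over 6 arrays that fall into 2 groups. All 6 genes had separate groups with higher values in Evi1 Tg, beside 7.08% of all genes. Picking genes by likeness to S100a6, whose own groups were separate upward, favours such genes, so nothing is read from that. Zfp296 read 142, 137 and 128 in Evi1 Tg cells and 94.4, 104 and 98.2 in WT cells. Mfng read 176, 209 and 170 in Evi1 Tg cells and 76.0, 93.6 and 86.6 in WT cells. Of the 6, Mfng was called (difference 1.11, limma adjusted p = 0.0326), beside 0.00902% of all genes called higher. The differences of the other 5 lay between 0.39 and 0.66.

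The arrays had median intensities of 51.6 to 55.4 and their small number limits precision. Mecom was below background on all 6 arrays, with 38.6 ± 1.78 in Evi1 Tg cells and 37.0 ± 2.66 in WT cells (SD, n = 3 each), so the labels could not be checked by it. All 11 markers of MLL-AF9 myeloid leukaemia, Hoxa9 and Meis1 among them, lay above background, as did 0 of 9 markers of T and NK cells, 0 of 6 of B cells and 0 of 4 erythroid ones. Of 9 erythroid genes listed, 4 were measured, with no globin gene among them. Also above background were 1 of 6 dendritic cell markers, Cd209a (814 to 2291), and 1 of 11 of stroma and endothelium, Pdgfrb. Pdgfrb was higher in Evi1 Tg with separate groups (difference 0.80) and was not called. Of the 11 leukaemia markers, 3 were higher in Evi1 Tg with separate groups, Kit (difference 1.22), Meis1 (0.85) and Hoxa7 (0.50). Hoxa10 and Ptprc (-0.39 each) were lower with separate groups, the other 6 overlapped and 0 were called. Separation was seen upward in 7.08% and downward in 7.47% of all genes. The summed intensity of 13 monocyte and macrophage markers was 11812 to 13030 in Evi1 Tg and 11665 to 13625 in WT, with Mrc1, C1qa, C1qb, C1qc, Klf4 and Marco below background. Ly6c2 alone gave 6384 to 7842 of it in Evi1 Tg and 7436 to 8392 in WT. Groups were separate for 4 of the 13, with differences of -1.13 for Adgre1, -0.67 for Cd14, 0.64 for Cd68 and 0.32 for Cx3cr1, and 0 were called. Over all genes, 14.6% had separate groups in either direction. The summed intensity of 13 neutrophil markers was 11882 to 20469 in Evi1 Tg and 10423 to 21172 in WT, with Ltf, Mmp9 and Retnlg below background. Elane alone gave 7651 to 9509 of that sum in Evi1 Tg and 5720 to 7402 in WT. Of the 13 neutrophil markers, Elane (difference 0.44) and Mmp9 (-0.83) had separate groups, and 0 were called. The sum of 8 mast cell, basophil and eosinophil markers was 393 to 432 in Evi1 Tg, against 409 in WT 1, 1352 in WT 2 and 788 in WT 3. Only Mcpt8 and Ms4a2 of these 8 had a mean above background, 7 had a difference below 0 (median -0.32) and 0 were called. That of 4 megakaryocyte markers, Itga2b below background, was 257 to 339 in Evi1 Tg and 254 to 603 in WT, with 0 called. The part of these cells in the S100 values was not tested. With 3 arrays a group, the smallest two-sided p of an exact permutation test is 0.1.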

How the data were processed

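Per the labels' protocols, RNA of sorted cells was turned into biotinylated cDNA (GeneChip WT PLUS). The intensity of each probe set was deposited in 1 table, whose values are linear (maximum 14719). How the authors corrected background, normalized and summarised it was not given in the sources used here. Signal near background may compress differences, and normalization may hide shared changes.

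Of 34351 probe sets, 23521 had 1 symbol in the platform annotation, 1814 several and 9016 none, and 23328 were found in RefSeq (GRCm38.p6). The probe set with the highest mean was kept per gene, and values were log2 transformed with no pseudocount or filter. Groups followed the labels. The comparison of Evi1 Tg with WT used limma 3.58.1 (lmFit, eBayes) under R 4.3.3, adjusted by Benjamini-Hochberg, and the procedure was first tested on simulated data. Figures used matplotlib 3.10.9. The members and gene lists were chosen with earlier results of these data known. Named genes were the members, genes of the S100 lists past the threshold or else the 2 with the smallest p per list, with S100a8, S100a9, Anxa2 and Ahnak, and the 6 genes most correlated with S100a6. The promoter motifs, S100a11-ps and the neighbours of S100a6 were chosen after values were seen. The 16 alternatives were leaving out each array, median centring, quantile normalization, an offset of 32, dropping dim genes, array weights, trend and robust eBayes, no moderation, a replicate block, averaged probe sets and all probe sets tested singly.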

Additional observations from a re-analysis of the deposited data

How the results depend on the processing

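S100a6 kept its direction in all 16 alternatives. The count of S100 genes called higher was 1, and it was 0 with quantile normalization (adjusted p of S100a6 0.0547), an offset of 32 before log2 (0.101), the replicate block (0.118) and no moderation (0.395), and 0 to 1 when arrays were left out in turn; the count called lower was 0 in all 16. Deviations of same-numbered arrays correlated at 0.19, -0.18 and 0.06 for replicates 1, 2 and 3. With so few arrays a group these values cannot decide whether same-numbered samples were processed together. Evi1 Tg 3 and WT 3 had the lowest median intensities, 52.6 and 51.6. Over all genes, 2 were called higher and 23 lower. The calls were 0 and 8 with the offset, 32 and 82 with array weights, 0 and 9 with the replicate block, 0 and 0 without moderation, and 6 genes were called higher both with dim genes left out and with trend and robust settings. Leaving out arrays gave 0 to 383 higher and 2 to 173 lower genes, the highest of both without WT 3. With arrays left out in turn, the difference of S100a13 ranged from -0.034 (without WT replicate 3) to 0.24, that of S100a16 from -0.014 (without Evi1 Tg replicate 3) to 0.033 and that of S100b from -0.031 (without WT replicate 2) to 0.065, all uncalled. The other 6 genes kept their sign and stayed uncalled. With dim genes left out, the 5 genes below background had no value. The median difference of all genes stayed within 0.0019 and 0.020. Fits with 2 arrays in a group rest on few samples, and the cause of the lost calls was not tested.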

Other observations

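Besides the listed family, 2 more S100 genes were measured on chromosome 3, and both were below background on all 6 arrays. S100a2, known from skin and other epithelia, read 63.7, 48.7 and 53.6 in Evi1 Tg cells and 46.4, 57.2 and 46.2 in WT cells. S100a7l2 lay between 29.5 and 35.1 in Evi1 Tg cells and between 29.3 and 33.5 in WT cells. They were named after their values were seen.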
